A study of Mus musculus with 4 samples.

Results

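The cells described here are tumour-infiltrating CD8 T cells caught with RNA of early effector cytokines and activation molecules. They had no detected RNA of the exhaustion receptor gene Havcr2 and little or none of 4 cycling genes. They were picked barcode by barcode from raw counts of unique molecular identifiers (UMIs, each standing for 1 captured RNA molecule). A barcode in which 500 or more genes were found and mitochondrial UMIs made up no more than 10% was selected when at least 3 of Xcl1, Crtam, Ccl1, Csf2, Cd83 and Ifng had a UMI, Havcr2 had none, and Mki67, Top2a, Birc5 and Ube2c together had at most 1. That rule found 330 of the 38316 cells kept from 39473 deposited barcodes. The values of these 11 genes chose the cells, so they are given below as a description and not as a test.

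The study asked, by its title, about ARID1A, a subunit of chromatin-remodelling complexes, and the STING and type I interferon response in anti-tumour immunity. CD8 T cells were sorted (CD45+ CD3+ CD8+, viability dye negative) from B16F10 tumours, a transplantable mouse melanoma line, in C57BL/6J mice aged 6 to 8 weeks. There were 2 samples named sgScr, a label that is not spelled out, and 2 named sgArid1a, a single-guide name that carries the gene Arid1a; mice, tumour line and sort were the same for all 4. The labels do not say whether tumour or T cells carried the guide, nor whether the replicates were separate mice or pools, so p-values measure only how much these libraries vary, and that variation may be technical. Each sample was a 10x Genomics single-cell library read from the 5′ end of RNA, and the deposited totals were 35881501 UMIs (sgScr replicate 1), 32484099 (sgScr replicate 2), 39713825 (sgArid1a replicate 1) and 81916795 (sgArid1a replicate 2).

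A CD8 T cell that meets antigen switches on genes through its receptor within hours, by way of calcium and the NFAT factors, AP-1 and NF-kappaB. XCL1 draws cross-presenting dendritic cells, CCL1 signals through CCR8, and the cytokines GM-CSF (Csf2) and interferon-gamma (Ifng) act on myeloid and tumour cells. CRTAM is an adhesion receptor of activated lymphocytes and CD83 an activation marker, whereas TIM-3, the product of Havcr2, marks later and more terminal states in tumours.

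Promoters of the selecting genes are shown because these are the cytokine genes by which the cells were recognised, and NFAT-responsive elements contain the core GGAAA. RefSeq promoter windows on GRCm38.p6, from 250 bases before to 50 bases after the annotated start, were found for 4 of the 6 genes, all but Crtam and Cd83. Each is printed 5′ to 3′ along the gene's strand, with GGAAA or its reverse complement TTTCC in capitals.
Xcl1: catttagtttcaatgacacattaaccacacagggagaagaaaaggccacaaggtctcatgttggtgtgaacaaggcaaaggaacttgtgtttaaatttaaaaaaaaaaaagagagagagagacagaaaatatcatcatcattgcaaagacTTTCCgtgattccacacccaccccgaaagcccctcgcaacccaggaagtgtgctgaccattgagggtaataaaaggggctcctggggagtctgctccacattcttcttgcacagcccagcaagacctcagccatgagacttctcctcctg
Ccl1: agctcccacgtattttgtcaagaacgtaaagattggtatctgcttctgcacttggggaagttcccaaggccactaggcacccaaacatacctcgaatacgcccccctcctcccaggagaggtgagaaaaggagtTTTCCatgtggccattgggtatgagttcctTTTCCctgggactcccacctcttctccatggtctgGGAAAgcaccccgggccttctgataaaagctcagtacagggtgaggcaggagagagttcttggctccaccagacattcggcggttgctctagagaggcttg
Csf2: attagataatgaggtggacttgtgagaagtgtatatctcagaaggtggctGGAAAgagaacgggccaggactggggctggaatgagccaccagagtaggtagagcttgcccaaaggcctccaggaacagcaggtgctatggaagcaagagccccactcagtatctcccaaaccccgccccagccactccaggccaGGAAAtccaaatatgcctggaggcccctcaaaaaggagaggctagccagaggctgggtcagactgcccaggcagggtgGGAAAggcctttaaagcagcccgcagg
Ifng: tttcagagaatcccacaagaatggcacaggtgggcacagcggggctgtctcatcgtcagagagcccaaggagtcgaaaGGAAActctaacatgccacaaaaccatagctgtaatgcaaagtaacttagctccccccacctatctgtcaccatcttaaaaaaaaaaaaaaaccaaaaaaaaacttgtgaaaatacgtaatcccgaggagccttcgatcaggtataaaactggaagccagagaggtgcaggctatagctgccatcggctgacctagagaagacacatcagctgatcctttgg

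The windows lie at chr1:164935473-164935772 on the minus strand (Xcl1), chr11:82179763-82180062 on the minus strand (Ccl1), chr11:54249850-54250149 on the minus strand (Csf2) and chr10:118440796-118441095 on the plus strand (Ifng). The Csf2 window ends upstream of the gene as GENCODE M21 draws it (chr11:54247271-54249667), because RefSeq places the start farther upstream. Counted on both strands, the 5-letter core occurred 3 times in the Ccl1 and Csf2 windows and 1 time in those of Xcl1 and Ifng. Of all 32851 promoters in the table, 61.3% held at least 1 copy and 9.42% held 3 or more. A TATAAA box was present in the Ifng window alone of the 4, against 13.6% of all promoters, and the AP-1 letters TGANTCA were in none, against 7.81%. A match to so short a motif is a description of the letters and not evidence of binding.

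The sgScr samples held 34 and 37 selected cells (replicates 1 and 2), and the sgArid1a samples held 105 and 154. These made up 0.445% and 0.516% of the cells kept from sgScr, but 0.980% and 1.20% of those from sgArid1a. Both sgArid1a samples lay above both sgScr samples, with means of 1.09% ± 0.158 (SD, n = 2) and 0.480% ± 0.0505 (SD, n = 2), a ratio of 2.27. An exact two-sided permutation test gave p = 0.33, the smallest that 2 against 2 samples allow. Libraries differed in depth, so each cell was also thinned at random to 1500 UMIs and the rule applied again. The shares became 0.201% and 0.202% in sgScr and 0.828% and 0.923% in sgArid1a, a ratio of 4.34 (exact permutation p = 0.33). Of 7646, 7169, 10711 and 12790 cells kept, 7454, 6934, 8941 and 12458 were deep enough for this. Over the same cells with all their UMIs the ratio was 2.52. Havcr2 and cycling UMIs were thinned too, so cells that the rule left out for them at full depth could pass. The thinned shares are thus not those of the same cells at equal depth. Among naive-like cells, defined by naive markers without Pdcd1, at least 3 of the 6 genes were found in 0.0625% and 0.0922% of sgScr and 0.185% and 0.471% of sgArid1a cells. Those 3, 4, 6 and 23 cells meet the rule and are counted among the selected ones, so these shares are no separate measure of background. The Wilson 95% intervals drawn in the plot of shares cover counting error only.

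**Figure D1:**
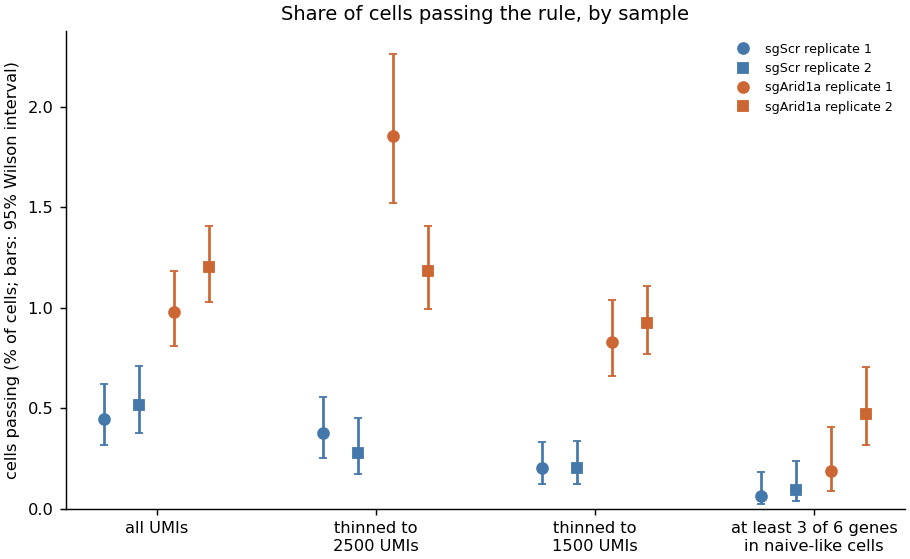
Percent of cells (vertical axis) passing the rule in each of the 4 samples, with all UMIs, after thinning to 2500 or 1500 UMIs per cell, and the 6-gene criterion alone in naive-like cells (a subset of the selected cells, which are titled rule cells in the plots); bars are 95% Wilson intervals. The sgArid1a samples (0.980% and 1.20% with all UMIs) lie above the sgScr samples (0.445% and 0.516%) in all 4 columns.

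Cytokine RNA was not limited to the selected state. Cells with at least 3 of the 6 genes numbered 86 and 86 in sgScr and 381 and 718 in sgArid1a when Havcr2 and cycling were ignored. Of these, the rule kept 39.5% and 43.0% in sgScr and 27.6% and 21.4% in sgArid1a; 41, 36, 230 and 474 had more than 1 cycling UMI and 11, 13, 46 and 90 were non-cycling with Havcr2. The selected share of cytokine-expressing cells was thus lower in both sgArid1a samples than in both sgScr samples, although their share of all cells was higher.

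The threshold of 3 genes cut a steep gradient. Among Havcr2-negative non-cycling cells of all samples, 24877 had none of the 6 genes, 6096 had 1 and 1136 had 2, just outside the rule. Just inside it, 211 had 3, and 84, 27 and 8 had 4, 5 and 6.

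Xcl1 was the gene most of the selected cells shared. It had a UMI in 94.1% and 94.6% of selected sgScr cells and in 97.1% and 96.1% of selected sgArid1a cells, against 5.99%, 6.19%, 13.5% and 16% of the other Havcr2-negative non-cycling cells, called unselected cells from here on. In naive-like cells it was found in 3.54%, 3.46%, 8.66% and 11.8%, at median depths of 3741, 3604.5, 2339 and 3697.5 UMIs per cell. Crtam was detected in 78.1% to 88.3% of selected cells across the samples. Cd83 was found in 64.7% and 81.1% of them in sgScr and in 48.6% and 55.2% in sgArid1a, and Ifng in 47.1% and 27.0% against 61.9% and 53.9%. These shares are a description, since both genes helped to choose the cells. Csf2 (18.8% to 32.4%) was the least often detected in every sample. Ccl1 (33.1% to 46.7%) came next, except in sgScr replicate 2, where Ifng (27.0%) was below Ccl1 (37.8%).

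**Figure D2:**
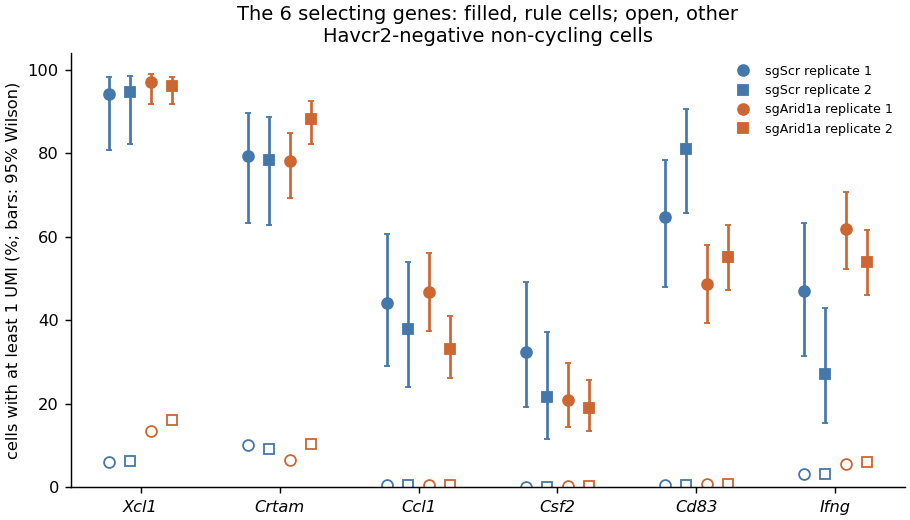
Percent of cells with at least 1 UMI (vertical axis, bars 95% Wilson intervals) of each selecting gene, filled symbols for selected cells and open symbols for unselected cells of the same sample. Xcl1 was found in 94.1% to 97.1% of selected cells, whereas Csf2 was found in 18.8% to 32.4%.

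The label of CD8 T cells held against its markers. A UMI of Cd3d, Cd3e or Cd3g was present in 330 of 330 selected cells, one of Cd8a or Cd8b1 in 325, and one of Cd4 in 1. At least 2 of Pdcd1, Lag3, Tigit, Tox and Entpd1, the exhausted-like markers, were detected in 241 (73.0%) of them against 10.2% of unselected cells. Thinned to 1500 UMIs, which 325 selected cells reached, those shares were 32.6% and 5.34%. A naive-like profile was seen in 36 selected cells (10.9%; 3.38% thinned) against 53.6% (38.4% thinned) of unselected cells. Tcf7 and Pdcd1 together, the pair that marks progenitor exhausted cells, were found in 98 cells (29.7%; 6.77% thinned) against 6.33% (2.39% thinned). No selected cell had 2 of the effector markers Klrg1, Cx3cr1 and S1pr5, and 0 of 330 allows a share of up to 0.909%. Tnf or Il2 was detected in 56 cells (17.0%; 4.0% thinned), against 3.67% (1.72% thinned) of unselected cells.

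Selected cells were the deeper ones. Medians over the 4 samples, sgScr first, were 8628.5, 8017, 6191 and 8268 UMIs, against 3601, 3447, 2124 and 3459 in unselected cells. UMIs of several Trbv segments, which a pair of cells in 1 droplet would give, were present in 75 (22.7%) of the selected cells and 8.88% of unselected ones. Between 3000 and 8000 UMIs the figures were 15 of 162 selected cells (9.26%) and 11.9% of unselected cells. That window held 162 of the 330 selected cells but 15 of the 75 with several segments, so most of those lay outside it. No barcode was selected in more than 1 library, although pairs of libraries shared 78 to 231 barcodes. At least 2 dendritic cell markers were found in 20 selected cells (6.06%; 1.54% thinned) and 0.305% (0.162% thinned) of unselected cells. That list of 11 genes summed to 282 to 568 UMIs per 1000000 in selected cells and 39.1 to 78.5 in unselected ones, mostly from Cd74. Of its genes 4, 5, 6 and 6 had UMIs in the selected cells of the 4 samples, among them Zbtb46; Flt3, Xcr1, Clec9a and Siglech were at 0 there, Clec9a and Siglech also in the unselected cells of 3 samples. The 9 macrophage genes summed to 18.4 to 32.1 and 7.70 to 20.1. Of them 1, 3, 2 and 6 had UMIs in the selected cells of the 4 samples. Csf1r and Adgre1 were at 0 there in all 4 samples, Adgre1 also in the unselected cells of all but sgArid1a replicate 2. Each comparison below was repeated without cells of several Trbv segments, without cells holding at least 2 dendritic, macrophage or B cell markers, and between 3000 and 8000 UMIs.

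UMIs were summed over the cells of a set in each sample and compared with edgeR's quasi-likelihood test, a gene being called at a Benjamini-Hochberg adjusted p under 0.05. Because the sets were cut from the same cells by 11 of their genes, those 11 were left out of the tests, and every count of calls describes cells chosen in this way. Levels are CPM, UMIs per 1000000 of the summed UMIs, given in the order sgScr replicates 1 and 2, then sgArid1a replicates 1 and 2. Changes are on the log2 scale.

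Against unselected cells of the same sample, the selected cells carried an activation profile: genes induced by the T cell receptor, secreted ligands, glycolysis and ribosome-building genes were higher, and naive, quiescence and interferon-stimulated genes were lower. Of 10958 genes tested, 40.6% were called, 2127 higher (19.4%) and 2327 lower (21.2%), and the median change over all genes was -0.09. Scaled by library totals alone, that median was 0.07 and the calls split into 2677 higher and 1618 lower. Because so many genes differed, a list is read against those shares. With cells limited to 3000 to 8000 UMIs, 1374 genes were called, 533 higher and 841 lower.

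Of 25 receptor-induced genes tested, 24 were higher and 1 lower, with a median of 1.68. Tnfrsf9 (4-1BB, a costimulatory receptor of recently activated T cells) stood at 560 and 536 CPM in selected sgScr cells and 608 and 528 in selected sgArid1a cells. In unselected cells it stood at 13.6, 16.7, 63.6 and 53.9, so every selected sum was above every unselected one (log2 change 3.91 ± 0.17 SE, adjusted p = 7.12e-23). Tnfrsf4 (OX40, its relative) differed by 4.37 ± 0.16 and Irf8, a transcription factor induced in activated CD8 T cells, by 3.68 ± 0.15. The nuclear receptor gene Nr4a1, an immediate readout of receptor signalling, was at 158, 67.0, 131 and 124 against 6.90, 7.53, 11.9 and 15.3 (3.30 ± 0.17). Its relative Nr4a2 rose by 3.27 ± 0.14 and the zinc-finger factor Egr2 by 4.04 ± 0.35. The exception in direction was Cd69, at 173, 152, 127 and 99.5 against 161, 167, 165 and 143 (-0.44 ± 0.11, -0.18 without a call in the depth window). In the depth window 21 of 23 receptor-induced genes tested were higher and 0 lower.

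Of the other cytokines, chemokines and TNF family ligands, 11 of 16 tested were higher and 2 lower. Ccl4, a chemokine of activated T cells, reached 1293, 950.2, 3997 and 2102 CPM against 44.5, 50.7, 227 and 162, a change of 4.03 ± 0.10. Ccl3, its neighbour in sequence and function, changed by 4.20 ± 0.10 and Tnfsf14 (LIGHT) by 3.0 ± 0.19. Ccl5 went the other way, at 2178, 831, 1548 and 2317 against 4711, 4944, 6772 and 6767 (-1.98 ± 0.11). Tnf was higher by 1.69 ± 0.25. Il2, the T cell growth factor, had UMIs in 1, 1, 6 and 3 selected cells, and its change of 2.57 ± 0.34 fell to 1.02 without a call (adjusted p = 0.100) when the largest cell of each sample was left out. The high-affinity IL-2 receptor chain Il2ra rose from 2.56, 2.58, 6.49 and 4.27 to 116, 154, 102 and 69.2 (4.56 ± 0.24).

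The 8 largest rises among well-measured genes were Cd70, Il1r2, Lad1, Cd81, Ccdc184, Gzmc, Penk and Ccr6, with log2 changes from 5.95 to 4.67. Cd70, the ligand of the costimulatory receptor CD27, stood at 131, 137, 107 and 67.8 CPM in selected cells and at 0.876, 0.859, 2.66 and 1.78 in unselected ones (5.95 ± 0.29, adjusted p = 2.82e-21). The tetraspanin gene Cd81 stood at 228, 184, 228 and 125 against 4.31, 4.54, 6.39 and 5.19 (4.97 ± 0.15). Selected cells were far from uniform in these genes: Cd70 was found in 47.1%, 37.8%, 34.3% and 23.4% of them, and Lad1 in 17 of 34, 18 of 37, 27 of 105 and 55 of 154 cells. Some sums rested on single cells. Of the 93 UMIs of Il1r2, the decoy receptor of interleukin-1, in sgScr replicate 1, 85 came from 1 cell, and of the 88 in replicate 2, 56. Likewise 73 of the 74 UMIs of Gzmc, granzyme C, in sgScr replicate 1 were from 1 cell. Penk, the enkephalin precursor, had 123 of 272 UMIs of sgArid1a replicate 2 in 1 cell. All 16 genes with the largest rises and falls kept their direction and call in all 14 alternatives run for this comparison, including the one without each gene's largest cell.

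**Figure D3:**
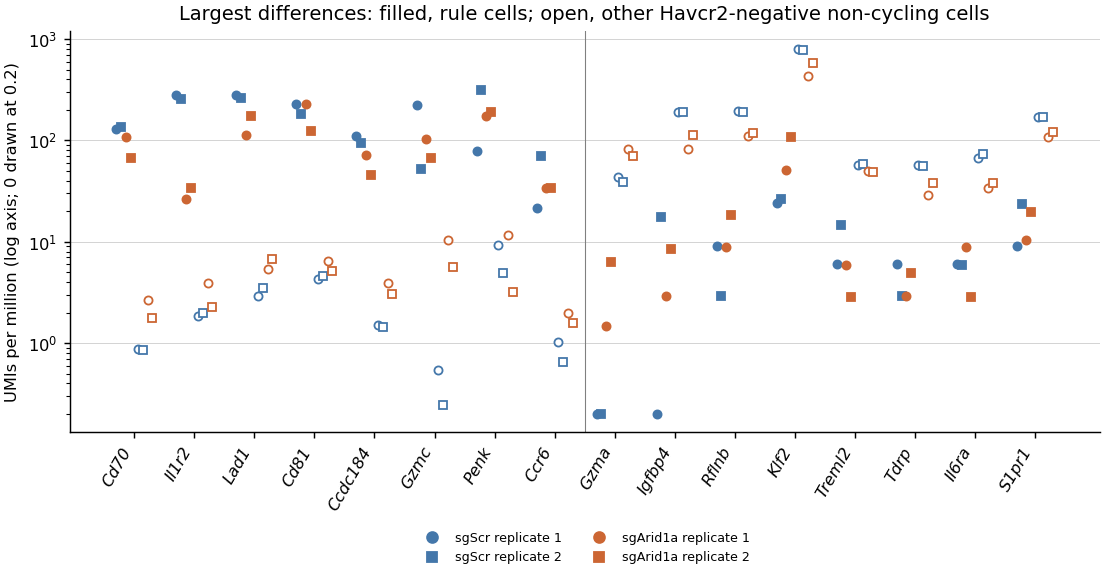
CPM (log axis) in selected (filled) and unselected (open) cells of each sample for the 8 largest rises (left) and 8 largest falls (right), with values of 0 drawn near the foot of the axis. Cd70 stood at 67.8 to 137 in selected and 0.859 to 2.66 in unselected cells, and no gene shown had overlapping sets.

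The 8 largest falls were Gzma, Igfbp4, Rflnb, Klf2, Treml2, Tdrp, Il6ra and S1pr1 (-4.35 to -3.16). Klf2, a transcription factor of resting lymphocytes, stood at 24.3, 26.2, 51.5 and 107 against 789, 781, 434 and 583 (-3.39 ± 0.17). S1pr1, the egress receptor that KLF2 drives, stood at 9.13, 23.3, 10.3 and 19.8 against 171, 169, 108 and 121. Gzma, granzyme A of effector cells, had 10 UMIs in all selected cells, 0 of them in sgScr, against 38.5 to 82.1 CPM in unselected cells. Naive, memory and progenitor genes were lower in 14 of 20 and higher in 2, with a median of -1.95. Among them the IL-7 receptor gene Il7r changed by -2.78 ± 0.11, Lef1 by -2.98 ± 0.15 and Tcf7 by -1.84 ± 0.11. Quiescence genes, such as Txnip (-2.01 ± 0.10) and Tsc22d3 (-2.83 ± 0.15), were lower in 7 of 9 and higher in 1, Ddit4.

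Inhibitory receptor and exhaustion genes were higher in 10 of 19 and lower in 3. Pdcd1, encoding PD-1, stood at 353, 560, 440 and 431 CPM against 70.7, 75.0, 136 and 123 (1.97 ± 0.11). Rgs16 (3.50 ± 0.14), Cd200 (4.28 ± 0.23), Cd160 (2.23 ± 0.12) and Tigit (1.92 ± 0.10) were also higher. Cytotoxic granule genes were higher in 10 of 17 and lower in 3: Gzmb, granzyme B, was higher by 0.91 ± 0.11 where Gzma was lower. Granzyme genes share sequence, so reads between close copies may be divided unevenly. Effector, migration and residency genes were mostly lower, 10 of 16 against 4 higher, but only 4 were lower and 4 higher in the depth window. Ly6c2 changed by -1.79 ± 0.10 and Zeb2 by 2.06 ± 0.18.

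Interferon-responsive genes were lower in the selected cells than in unselected ones. Of 26 type I interferon-stimulated genes tested, 21 were lower and 1 higher, with a median of -1.40. Rtp4 stood at 0, 2.91, 10.3 and 19.8 CPM against 34.2, 33.7, 86.1 and 89.3 (-2.72 ± 0.21), and Irf7, the master factor of this response, changed by -1.57 ± 0.16. Isg15 was lower by 1.53 ± 0.17 but higher in 1 of the 4 samples (9.13, 37.9, 32.4 and 51.5 against 35.2, 36.9, 129 and 129). Of 27 interferon-gamma response genes, 22 were lower and 1 higher (median -1.05), with the GTPase gene Gbp2 at -1.88 ± 0.16. Ifngr1, a receptor chain of interferon-gamma counted in the list of costimulatory and cytokine receptors, was at -2.32 ± 0.10. In the depth window 11 type I genes were lower and 1 higher (median -0.79), and 10 interferon-gamma genes were lower and 0 higher (median -0.70). STING itself (Tmem173) was higher by 0.88 ± 0.11, while 2 of the 7 STING and interferon signalling genes tested were higher and 2 lower.

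Growth and metabolism genes were higher. Ribosome biogenesis and growth genes were higher in 24 of 25 and lower in 0 (median 1.09): Odc1, the first enzyme of polyamine synthesis, rose by 2.17 ± 0.11 and Srm, spermidine synthase, by 1.99 ± 0.10. Glycolysis genes were higher in 13 of 16 and lower in 0 (median 0.94), among them Tpi1 by 1.78 ± 0.09 and Ldha by 1.05 ± 0.07. In the depth window 12 ribosome genes (median 0.47) and 5 glycolysis genes (median 0.38) were still called higher, and Ldha, at 0.27, was not. S phase genes, 15 of 19 higher over all depths (median 0.89, Dut 1.20 ± 0.10), had 0 higher and 1 lower in the depth window with a median of -0.07, and Mcm3 turned from 1.17 to -0.34 there. Their rise was not seen in that window, which limits depth without matching it between the sets. Among Bcl2 family genes, the survival genes Bcl2a1d (3.11 ± 0.12) and Bcl2a1b (2.57 ± 0.10), near-identical copies between which reads cannot be placed with certainty, were higher while Bcl2 was lower (-1.74 ± 0.13).

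Of the remaining lists, costimulatory and cytokine receptors were split (8 higher and 6 lower of 21), as were immediate-early and heat shock genes that tissue digestion can induce (8 and 8 of 20; Fos -1.84 ± 0.16, Hspd1 1.44 ± 0.09). Genes of the receptor complex and its proximal signalling were lower in 6 and higher in 2 of 14: Cd8a rose by 0.58 ± 0.07, Cd8b1 fell by 0.47 on the log2 scale, and Cd3e did not pass (-0.08 ± 0.07). Of 5 dendritic and class II genes tested 2 were higher, Cd74 by 2.79 ± 0.15 and the transcription factor gene Zbtb46 by 4.05 ± 0.49, and of 5 B cell genes 1 was higher and 2 lower. Macrophage genes gave 1 higher of 2, Cd68. None of 6 natural killer, 3 CD4 or regulatory and 3 gamma-delta genes was called, and 1 melanoma or stromal gene of 1 was lower. None of the 4 neutrophil and red cell genes was measured well enough to test.

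**Figure D4:**
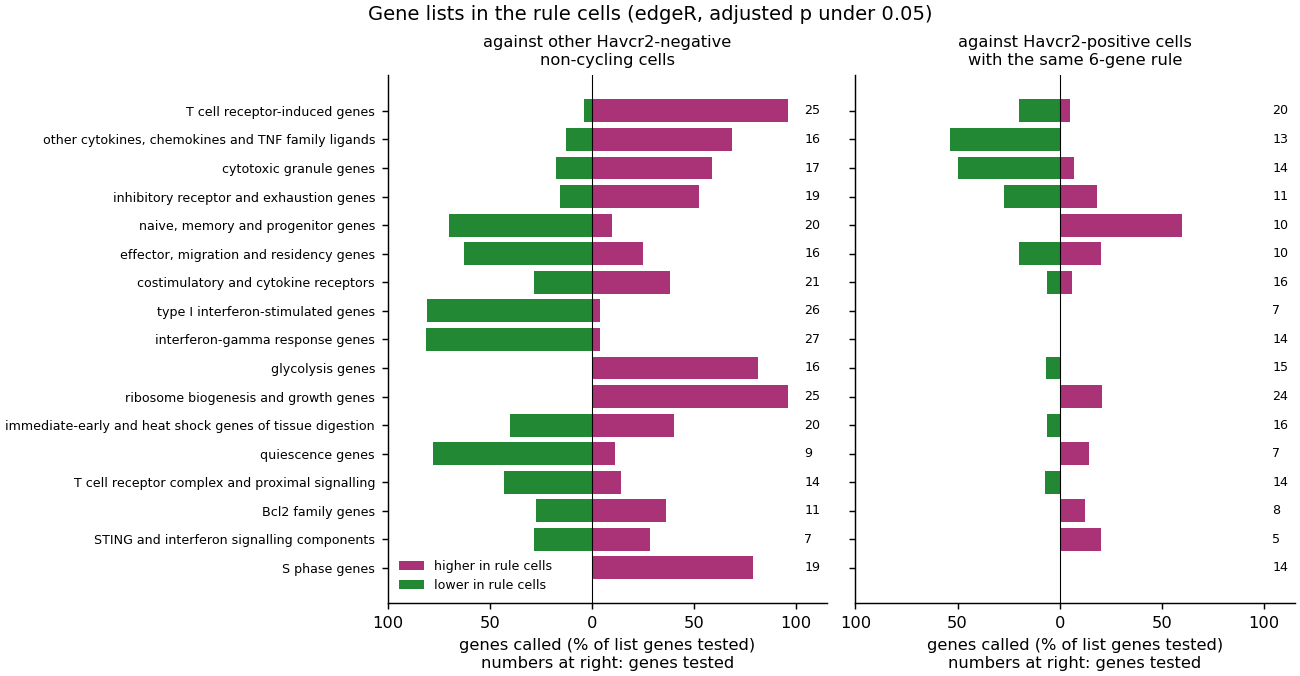
Percent of the tested genes of each list called higher (right of 0) or lower (left) in selected cells, against unselected cells (left panel) and against Havcr2-positive cells with the same 6 genes (right panel); the number at the right of each bar is the number tested. Receptor-induced genes were higher in 24 of 25 on the left, and naive and progenitor genes lower in 14 of 20 on the left and higher in 6 of 10 on the right.

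Havcr2-positive cells with the same 6 genes were rarer, 11, 13, 46 and 90 cells, and deeper, with medians of 12426, 9718, 6285 and 10915.5 UMIs. The selected cells had more RNA of progenitor and memory genes and less of chemokine and killing genes than these counterparts. Of 3983 genes tested, 6.5% were called, 122 higher (3.06%) and 137 lower (3.44%). In the depth window 0 genes were called by edgeR, 98 having an unadjusted p under 0.05, and DESeq2 called 84 with all cells. The window leaves 57 Havcr2-positive cells. Calls fell to 126 without sgArid1a replicate 1 and to 111 without sgArid1a replicate 2.

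Naive, memory and progenitor genes were higher in 6 of 10 tested and lower in 0, with a median of 1.46 against 0.03 for all genes. Tcf7, encoding the progenitor factor TCF-1, stood at 110, 181, 75.1 and 144 CPM in selected cells and 49.8, 14.7, 19.8 and 47.0 in the Havcr2-positive ones (1.79 ± 0.23, adjusted p = 0.000158 by edgeR). No selected sum lay below a Havcr2-positive one. Id3, an inhibitor of DNA binding of memory precursors, stood at 103, 105, 64.8 and 131 against 14.2, 0, 9.90 and 26.2 (2.58 ± 0.28). Dapl1 differed by 3.21 ± 0.25, Slamf6 by 1.45 ± 0.22 and Il7r by 1.46 ± 0.32. Il7r lost its call without sgScr replicate 2 (1.16), sgArid1a replicate 1 (1.26) or sgArid1a replicate 2 (1.90). The death receptor gene Fas (2.06 ± 0.31) and Asap1 (1.79 ± 0.32) were also among the largest rises.

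Cytokine, chemokine and ligand genes outside the rule were lower in 7 of 13 and higher in 0. Ccl3 stood at 329, 277, 1632 and 580 against 2774, 1851, 5100.5 and 5611 (-2.63 ± 0.19). Granule genes were lower in 7 of 14 and higher in 1, Lamp1. Gzmb stood at 79.1, 96.2, 297 and 222 against 1330.0, 646, 930.4 and 1308 (-2.56 ± 0.23), and the pore-forming Prf1 at 82.1, 46.6, 181 and 131 against 1010.0, 264, 442 and 799 (-2.38 ± 0.24). No sum overlapped between the sets for either gene. Both kept their direction in the depth window (-2.87 and -1.498), without a call. Spp1 (osteopontin), Cdkn2a, Serpine2, Ccrl2 and Lgals3 were also among the 8 largest falls, from -3.56 to -1.83. Spp1 in sgScr replicate 2 was at 0 in selected cells.

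Receptor-induced genes were mostly not called between these sets: 4 of 20 were lower and 1 higher, with a median of 0.01. Tnfrsf9 was lower by 0.84 ± 0.09 and Nr4a1 differed by 0.39 ± 0.21 (adjusted p = 0.348). Pdcd1 differed by -0.32 ± 0.15 (adjusted p = 0.265), while Lag3 (-0.73 ± 0.13), Tigit (-0.71 ± 0.12) and Rgs16 (-1.18 ± 0.12) were lower and Ikzf2 (0.95 ± 0.19) and Cd200 higher among 11 inhibitory genes. Tcf7 and Pdcd1 were both found in 29.7% of selected and 22.5% of Havcr2-positive cells, 6.77% and 3.75% after thinning. None of 7 type I interferon-stimulated, 14 interferon-gamma response or 14 S phase genes was called. Ribosome biogenesis genes were higher in 5 of 24, but Nolc1, Nop56 and Npm1 changed sign in the depth window.

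Within the selected cells, the 2 groups were compared over 2 sums each, with 328722 and 343082 UMIs behind the sgScr sums and 679504 and 1416651 behind those of sgArid1a. The selected sgArid1a cells had more RNA of Ly6a, Plac8, the chemokines Ccl3 and Ccl4 and the granule genes Gzmb and Prf1, and less of Ccr7 and Ddit4. By list, 3 of 14 cytokine and ligand genes (median -0.04) and 2 of 14 granule genes (median 0.07) were higher and 0 lower. Of 5476 genes tested, 1.06% were called, 26 higher (0.475%) and 32 lower (0.584%), and the 2 groups did not overlap in 43.1% of genes (19.6% higher, 23.6% lower). Arid1a RNA stood at 51.7 and 70.0 against 55.9 and 64.9 CPM (0.03 ± 0.28, adjusted p = 0.983), which checks the labels only if T cells carried the guide. DESeq2 called 10 genes, the depth window left 5 and selection by at least 4 of the 6 genes left 1. Removal of cells with other cell types' markers left 31. Removal of cells with Trbv13-1 or Trbv20, the receptor segments whose shares close the text, left 9. Of the genes listed as higher or lower, Ccl3, Ccl4 and Prf1 were not called by DESeq2. Plac8, Ccl3, Gzmb, Prf1, Ccr7 and Ddit4 lost their calls when cells of these segments were removed, and Ly6a and Ccl4 did not. Only Gzmb kept its call in the depth window, and none did with at least 4 of the 6 genes. The genes that lost calls kept their direction.

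The largest rises were Plac8, Ccl3, Ly6a, Klf2, Gzmb, Ccl4, Rgs1 and Lgals3. Genes were named here and among the largest falls only if the 2 groups did not overlap, so the lack of overlap is no result. Ly6a (Sca-1, an interferon-responsive surface protein) stood at 119 and 122 CPM in sgScr and 508 and 365 in sgArid1a (1.86 ± 0.20, adjusted p = 2.02e-09 by edgeR). It was found in 38.2% and 37.8% against 68.6% and 61.7% of selected cells. Plac8 stood at 30.4 and 32.1 against 215 and 98.1 (2.26 ± 0.33). Gzmb stood at 79.1 and 96.2 against 297 and 222 (1.57 ± 0.21), and Prf1 at 82.1 and 46.6 against 181 and 131 (1.27 ± 0.25, 0.89 without a call when sgScr replicate 2 was left out). Gzmb was found in 3 of 34 and 3 of 37 selected sgScr cells and in 34 of 105 and 34 of 154 selected sgArid1a cells. Ccl4 stood at 1293 and 950.2 against 3997 and 2102 (1.46 ± 0.19), and Ccl3 at 329 and 277 against 1632 and 580 (1.88 ± 0.24). For both genes replicate 1 was the higher of the 2 sgArid1a samples. Klf2 stood at 24.3 and 26.2 against 51.5 and 107 (1.76 ± 0.36). It fell to 1.06 without a call when sgArid1a replicate 2 was left out, and Lgals3 (1.34 ± 0.26) to 0.87 without sgArid1a replicate 1. Klf2, Lgals3 and Rgs1 were not called by DESeq2, in the depth window, with at least 4 of the 6 genes or without Trbv13-1 and Trbv20 cells. Klf2 and Lgals3 also lost their calls without cells holding other cell types' markers. Klf2 lost its call with library totals and without cells of several Trbv segments (1.14) as well.

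**Figure D5:**
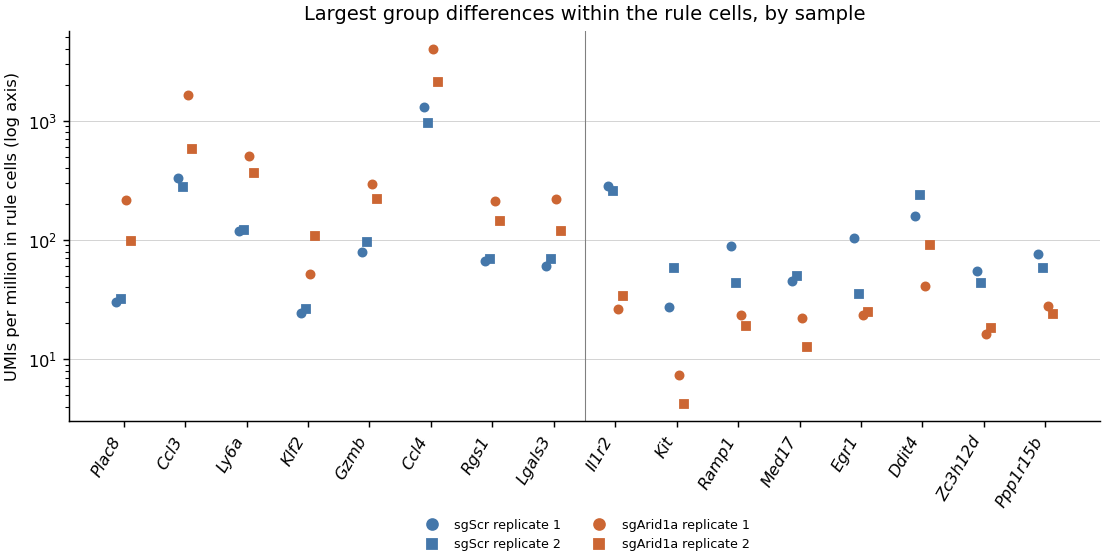
CPM (log axis) in the selected cells of each sample for the 8 largest rises (left) and 8 largest falls (right) in sgArid1a against sgScr. Ly6a stood at 119 and 122 in sgScr and 508 and 365 in sgArid1a; for Il1r2, 85 of 93 and 56 of 88 UMIs in the 2 sgScr samples came from 1 cell each.

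The largest falls were Il1r2, Kit, Ramp1, Med17, Egr1, Ddit4, Zc3h12d and Ppp1r15b. Ddit4, a stress-induced inhibitor of mTORC1, stood at 158 and 239 in sgScr and 41.2 and 90.4 in sgArid1a (-1.46 ± 0.23, adjusted p = 2.16e-05) and was found in 17 of 34 and 24 of 37 cells against 21 of 105 and 55 of 154. Ccr7, the lymph node homing receptor, stood at 347 and 350 against 160 and 123 (-1.30 ± 0.18). Eomes, a T-box factor of effector and memory CD8 cells, stood at 167 and 163 against 69.2 and 84.7 (-1.05 ± 0.21) and lost its call without sgScr replicate 1 (-0.94) and without cells of several Trbv segments (-0.41). Il1r2, at 283 and 256 against 26.5 and 33.9 (-3.09 ± 0.22), rested on single cells as given above and was at -1.35 without a call (adjusted p = 0.061) when the largest cell of each sample was left out. Kit, with 16 of 20 UMIs of sgScr replicate 2 in 1 cell, was at -2.33 without a call when that sample was left out. Its call was also lost without sgArid1a replicate 1 (-3.27) or sgArid1a replicate 2 (-2.45). Egr1 stood at 103 and 35.0 against 23.5 and 24.7 (-1.48 ± 0.36) and was at -0.41 without sgScr replicate 1. Ramp1 (-0.97) and Ppp1r15b (-1.08) also lost their calls without that sample, and Med17 and Zc3h12d without any one of the 4 samples.

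Few interferon-responsive genes passed the test within the selected cells. Of 11 type I interferon-stimulated genes tested, 1 was higher and 0 lower, with a median of 0.65 against -0.01 for all genes. That gene, Ifi27l2a, stood at 526 and 420 against 793 and 678 (0.65 ± 0.17, adjusted p = 0.0313 by edgeR) and was at -0.10 without a call in the depth window. Isg15 stood at 9.13 and 37.9 against 32.4 and 51.5 (0.92 ± 0.41, adjusted p = 0.398), with overlap. Of 20 interferon-gamma response genes 0 were called, with a median of 0.35. Receptor-induced genes gave 0 higher and 1 lower of 23 (Egr1), Tnfrsf9 being at 560 and 536 against 608 and 528. No inhibitory receptor, costimulatory, glycolysis, ribosome biogenesis, S phase, receptor complex, Bcl2 family or STING gene was called. Tnf (-0.06 ± 0.39), Il2 (0.71 ± 0.53) and Pdcd1 (-0.04 ± 0.17) did not pass the test. In the simulated version of this comparison edgeR recovered 66.3% of 2-fold and 96.0% of 4-fold changes, with 7 false calls among the unchanged genes.

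Whether the group difference was the same in selected and unselected cells was tested as an interaction, on 11630 genes; calls fell from 96 to 59 without sgArid1a replicate 1 and to 44 without sgArid1a replicate 2. It was called for 0.825% of them, 23 with a higher (0.198%) and 73 with a lower (0.628%) sgArid1a effect in selected cells (17 and 111 when scaled by library totals). Receptor-induced genes made up 10 of the lower calls among 25 tested, with 0 higher and a median of -0.85 against 0.03 for all genes. Selected cells of both groups were chosen by activation genes, whereas Xcl1 was found more often in unselected sgArid1a than in unselected sgScr cells. How far the rule itself sets the lower effects of receptor-induced genes was not tested. Tnfrsf9 stayed within 528 to 608 CPM in selected cells while it stood at 13.6 and 16.7 in unselected sgScr and 63.6 and 53.9 in unselected sgArid1a cells (-1.81 ± 0.14, adjusted p = 7.20e-32). Tnfrsf4 (-1.52 ± 0.15), Irf8 (-1.31 ± 0.17) and Bhlhe40 (-1.10 ± 0.16) gave lower effects too. Pdcd1, at 353, 560, 440 and 431 against 70.7, 75.0, 136 and 123, was lower by 0.78 ± 0.14, but by 0.51 without a call when sgScr replicate 2 was left out.

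Klf2 had the largest positive interaction (2.42 ± 0.30, adjusted p = 1.37e-12). It was higher in selected sgArid1a cells, as given above, and lower in unselected sgArid1a cells, at 789 and 781 against 434 and 583. The direction and call of this interaction held in all 14 alternatives. The call of the rise within selected cells was lost in the alternatives named above. Rgcc behaved alike, at 70.0 and 43.7 against 152 and 98.1 in selected and 72.3 and 68.6 against 41.4 and 43.6 in unselected cells (1.89 ± 0.25). No type I interferon-stimulated gene of 27 and no interferon-gamma response gene of 27 was called, with medians of -0.01 and -0.08. The selected sums of sgScr are small, and the simulated version recovered 15.2% of 2-fold and 52.5% of 4-fold differences, with 1 false call.

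Receptor V segments, which the rule did not use, were read from the counts of Trbv genes. A cell was assigned to its leading segment if that had 2 or more UMIs and no tie, which placed 33, 33, 91 and 132 selected cells. Trbv13-1 was carried by 6.06%, 12.1%, 19.8% and 8.33% of them, against 7.35%, 7.70%, 8.59% and 7.50% of unselected cells. It was higher in 3 of 4 samples, with means of 11.6% and 7.78% (exact two-sided paired permutation p = 0.375, where 4 pairs allow no less than 1 in 8). Between 3000 and 8000 UMIs it was higher in 4 of 4 samples, with means of 15.8% and 8.65% over 13, 12, 55 and 61 assigned selected cells, at the smallest p that 4 pairs allow. Without sgArid1a replicate 1 the difference of 3.79 percentage points was 1.32. Trbv20 was carried by 0 of 33 (up to 9.09% allowed), 9.09%, 12.1% and 6.06%, against 2.87%, 2.62%, 4.60% and 3.65%, again higher in 3 of 4 (p = 0.375, exact permutation), and the difference of 3.38 points was 2.0 without sgArid1a replicate 1 and 5.46 without sgScr replicate 1. Both p-values stay at 0.375 after adjustment over the 2 segments. No share was thus shown to differ from that of unselected cells. In Havcr2-positive cells with the same 6 genes the 2 segments were carried by 9.09%, 23.1%, 25.0% and 28.0% and by 0 of 11, 7.69%, 30.6% and 14.7%.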

How the data were processed

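The labels' protocols describe CD8 T cells sorted from digested tumours and run on the Chromium Next GEM 5′ chemistry. Matrices of UMI counts per gene and barcode were deposited by the authors, 4 in all with 32285 genes each. The submitters' processing notes name Cell Ranger 3.0.2, Seurat and the mm10 build, whereas the file headers name Cell Ranger 6.0.1. Deposited matrices were used as filtered by the authors; no doublet caller was run, and cells with UMIs of several Trbv segments were counted instead.

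UMIs were summed per sample and cell set in Python 3.11.15 (numpy 2.4.6, scipy 1.17.1) and tested in R 4.3.3 with edgeR 4.0.16 (TMM factors, filterByExpr, quasi-likelihood, Benjamini-Hochberg over all genes tested), with the sample as a term where 2 sets of a sample were compared. SE is the log2 change divided by the square root of F. DESeq2 1.42.0, other filters, scalings and cell sets, and leaving out each sample were alternatives. Thinning used random seed 1. The tests were checked on simulated sums drawn from the model that edgeR fitted. Such draws do not copy single cells that hold most UMIs of a gene. Intervals are Wilson 95% intervals, and a count of 0 is given the limit of 3 counts.

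Named genes were a fixed set, the 8 largest rises and falls per comparison among called genes averaging 20 or more CPM (UMIs per 1000000) with one direction in every sample, the 5 largest interactions each way, and 4 genes per list by p. Between groups, that direction meant both sgArid1a samples above, or both below, both sgScr samples. Other genes were named after their values were seen. The members, 25 gene lists (381 of 384 entries matched) and tests were chosen with earlier results of these data known. Gene positions are from GENCODE M21 on mm10, and promoters from RefSeq on GRCm38.p6. Some genes that this rule names are not reported here.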

Additional observations from a re-analysis of the deposited data

Results flagged for a closer look

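The sgArid1a effect differed between selected and unselected cells, by the interaction test of edgeR, in the 10 genes named by size. Values are log2 differences of the effect, and adjusted p was under 0.05 for each. Positive differences were 2.42 for Klf2, 2.26 for Sidt1, 1.89 for Rgcc, 1.72 for Plac8 and 1.55 for Riox2. Sidt1 stood at 3.04, 14.6, 16.2 and 38.1 CPM in selected cells (sgScr, then sgArid1a) and 109, 108, 76.3 and 85.6 in unselected ones, and lost its call without sgScr replicate 1 (1.61) or sgArid1a replicate 2 (1.46). Plac8 was higher in sgArid1a in both sets, at 145, 138, 239 and 188 in unselected cells. Riox2 lost its call when any one sample was left out.

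Negative differences were -4.90 for Gzmc, -3.60 for Il1r2, -2.07 for Egr1, -1.98 for Ccdc184 and -1.87 for Cd70. With each gene's largest cell left out, Gzmc (-2.88), Il1r2 (-1.95), Ccdc184 (-2.17) and Cd70 (-1.92) lost their calls. Egr1 was at -1.01 without a call when sgScr replicate 1 was left out, and Ccdc184 and Cd70 lost theirs without either sgArid1a replicate. The causes of these differences were not tested.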

How the results depend on the processing

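Of the 11 alternatives for the share of selected cells, each kept the sgArid1a samples higher on average. The difference of 0.612 percentage points became 1.19 after thinning to 2500 UMIs, 1.97 with at least 2 of the 6 genes, 0.232 with at least 4, 0.834 over Havcr2-negative non-cycling cells and 1.19 with at least 1000 genes; it ranged from 0.4999 to 0.724 when 1 sample was left out.

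Between 3000 and 8000 UMIs there were 1374 calls against unselected cells, 0 against Havcr2-positive cells, 5 between groups and 59 interactions. With at least 4 of the 6 genes there were 13 against Havcr2-positive cells, 1 between groups and 43 interactions. DESeq2 gave 84, 10 and 38 in the same order. Without a filter on low counts 397 were called against Havcr2-positive cells. Between groups, calls were 34 with library totals, 31 without cells carrying other cell types' markers (both chosen after seeing the data) and 9 without Trbv13-1 and Trbv20 cells. Leaving out 1 sample gave 111 to 274 calls against Havcr2-positive cells, 47 to 70 between groups and 44 to 82 interactions. The depth window, the stricter gene minimum and the left-out cells or samples leave fewer cells or samples to test. Without cells of several Trbv segments, 64 genes were still called between groups. The cause of the changes in calls was not tested for any alternative.

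Signs reversed in the depth window for Mcm3 (-0.34) against unselected cells, for Nolc1 (-0.32), Nop56 (-0.50) and Npm1 (-0.057) against Havcr2-positive cells, for Ifi27l2a (-0.10) between groups, and in the interaction for Pkm (0.013), Tpi1 (0.45), Pgk1 (0.42), Pgam1 (0.26) and Odc1 (0.023). With at least 4 of the 6 genes the interactions of Gzmc (0.80) and Ccl4 (0.093) reversed. With the replicate number as a replicate block, 83 genes were called between groups, 34 higher and 49 lower. Deviations of same-numbered samples from their group means had r = 0.0039 across 5482 genes, which are not independent. With so few samples and such small sums, that value cannot decide whether the numbers pair the samples. The 71 selected sgScr cells limit what can be seen between groups.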
